A study of Homo sapiens with 18 samples.

Results

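The miR-181 family was described as its 4 mature 5p members, miR-181a-5p, miR-181b-5p, miR-181c-5p and miR-181d-5p (HSA-MIR-181A-5P, HSA-MIR-181B-5P, HSA-MIR-181C-5P and HSA-MIR-181D-5P in the tables), chosen by name from the 2167 mature miRNAs listed in the small-RNA tables. All 4 were listed and all 4 passed the filter on low values. The data were from wild-type HCT116 cells, an epithelial colorectal carcinoma line grown in McCoy's 5A medium with serum, and no group carried any other treatment. Cells were collected on day 3 at 50% confluency, on day 5 at 250% and on day 7 at 400% in the labels (the methods give a range ending there), with 3 biological replicates a day, so day in culture and density cannot be told apart. Small RNA was sequenced in 9 libraries over the 3 days, and whole transcriptome RNA in 6 libraries from day 3 and day 5. Day 7 of the whole transcriptome was not analysed here. The question the design addresses is how miRNAs and the genes they can pair with differ as cells pass from sparse to overgrown culture.

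A miRNA is cut from a hairpin precursor by DROSHA and then DICER1, which leaves a duplex of a 5p and a 3p arm. One arm is kept by an Argonaute protein, and its bases 2 to 8, the seed, pair with complementary sites that lie mostly in the 3′UTR of mRNAs. The miR-181 family is best known from lymphocyte development, where it tunes T cell receptor signalling through phosphatases, and it has been studied in colorectal and other carcinomas as a regulator of apoptosis and differentiation genes.

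The 4 members are shown to let the shared seed, in capitals, be compared with the bases that tell the members apart (RefSeq, GRCh38.p14).
miR-181a-5p: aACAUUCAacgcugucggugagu
miR-181b-5p: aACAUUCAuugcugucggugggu
miR-181c-5p: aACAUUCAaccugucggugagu
miR-181d-5p: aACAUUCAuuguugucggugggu
All 4 have the same seed, so a site that pairs with the seed alone cannot tell them apart. Counted from the 5′ end, miR-181a-5p and miR-181b-5p differ by A9U, C10U and A21G. miR-181b-5p and miR-181d-5p differ by C12U alone. miR-181c-5p is 22 bases long and lacks the base at position 11 of miR-181a-5p, whereas the other members are 23 bases long. One further mature miRNA of the RefSeq table, hsa-miR-4262, has this seed, and it was not analysed here. Because miR-181b-5p and miR-181d-5p are 1 base apart, a read of one with an error at that base could have been counted under the other, and how the counting split such reads was not tested. miR-181a-5p and miR-181c-5p are also 1 base apart, by the missing base, and the split of their reads was not tested either.

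The family is made from 6 hairpins in 3 clusters, all inside introns of longer transcripts. miR-181a-5p is encoded identically on chromosome 1 (MIR181A1, chr1:198859108-198859130, minus strand) and on chromosome 9 (MIR181A2, chr9:124692480-124692502, plus strand). miR-181b-5p likewise comes from MIR181B1 (chr1:198858925-198858947, minus strand) and from MIR181B2 (chr9:124693725-124693747, plus strand). The chromosome 1 hairpins lie in introns of the lncRNA MIR181A1HG, and the chromosome 9 hairpins lie in an intron of the lncRNA MIR181A2HG, opposite in strand to introns of NR6A1, an orphan nuclear receptor gene. miR-181c-5p (chr19:13874725-13874746, plus strand) and miR-181d-5p (chr19:13874910-13874932, plus strand) lie in introns of NANOS3, an RNA-binding protein gene of the germ line. The 5p values of miR-181a and miR-181b are therefore sums over 2 loci. The 3p arms of miR-181a are not, and they are printed because they separate the loci, again with bases 2 to 8 in capitals.
miR-181a-3p: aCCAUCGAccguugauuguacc
miR-181a-2-3p: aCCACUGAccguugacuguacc
miR-181a-3p is from chromosome 1 (chr1:198859069-198859090, minus strand) and miR-181a-2-3p from chromosome 9 (chr9:124692518-124692539, plus strand). They differ by U5C, C6U and U16C, counted from the 5′ end.

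Values per miRNA were the deposited log2 values, called the deposited scale here. They keep no read counts, so depth and counting error could not be had for small RNA. A difference of 1 is read here as a doubling, which holds if the values are plain log2. The sources do not name the transform, and the CPM, shares and folds below rest on this reading. Since the summed miRNA signal (the sum of back-transformed values over all miRNAs) was between 2452607 and 2600754 in the day 7 libraries and between 1542087 and 1947371 in the others, each level was also given per 1000000 of its own library's miRNA signal (CPM). Dividing by these totals moved the median change over all 559 miRNAs tested between day 7 and day 3 from 0.30 to -0.20 on the log2 scale, so changes are given beside both medians.

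miR-181a-5p was the main member and rose between day 5 and day 7. Its deposited log2 values were 13.63, 13.68 and 13.47 on day 3, 13.71, 13.77 and 13.71 on day 5, and 14.64, 14.68 and 14.62 on day 7. Day 7 stood above all other libraries, and the day 5 libraries lay just above those of day 3. The means were 13.59 ± 0.11, 13.73 ± 0.03 and 14.65 ± 0.03 (SD, n = 3). In CPM its levels were 6970 ± 335, 7602 ± 207 and 10195 ± 170 (SD, n = 3), which rose from day 5 to day 7 as well. By its mean over the 9 libraries miR-181a-5p was 22nd of the 2167 miRNAs.

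miR-181b-5p came next, and was higher on each later day on the deposited scale. Its log2 values were 10.48, 10.46 and 10.46 on day 3, 10.61, 10.73 and 10.66 on day 5, and 10.94, 10.99 and 10.89 on day 7, with no overlap between days. In CPM, however, it was at 800 ± 98, 910 ± 10 and 780 ± 19 (SD, n = 3), with day 3 and day 7 overlapping and day 5 above day 7.

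miR-181c-5p followed the pattern of miR-181a-5p at a lower level. Its log2 values were 8.17, 8.11 and 7.85 on day 3, 8.03, 8.32 and 8.001 on day 5, and 9.02, 9.03 and 8.87 on day 7. Day 3 and day 5 overlapped and day 7 stood above both. In CPM it was at 149 ± 6, 156 ± 13 and 200 ± 12 (SD, n = 3).

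miR-181d-5p was the least abundant and differed little between days. Its log2 values were 6.38, 6.56 and 6.10 on day 3, 6.24, 6.27 and 6.36 on day 5, and 6.60, 6.68 and 6.75 on day 7. These last were the highest, but the lowest of them, at 6.60, was close to the uppermost day 3 library, at 6.56. In CPM it was at 46.0 ± 2.2, 43.8 ± 2.8 and 40.7 ± 2.0 (SD, n = 3).

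In all 9 libraries the order of levels was miR-181a-5p, miR-181b-5p, miR-181c-5p and miR-181d-5p, and no neighbours in this order overlapped on any day. miR-181b-5p, miR-181c-5p and miR-181d-5p ranked 96th, 179th and 290th of the 2167 miRNAs by their means.

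**Figure D1:**
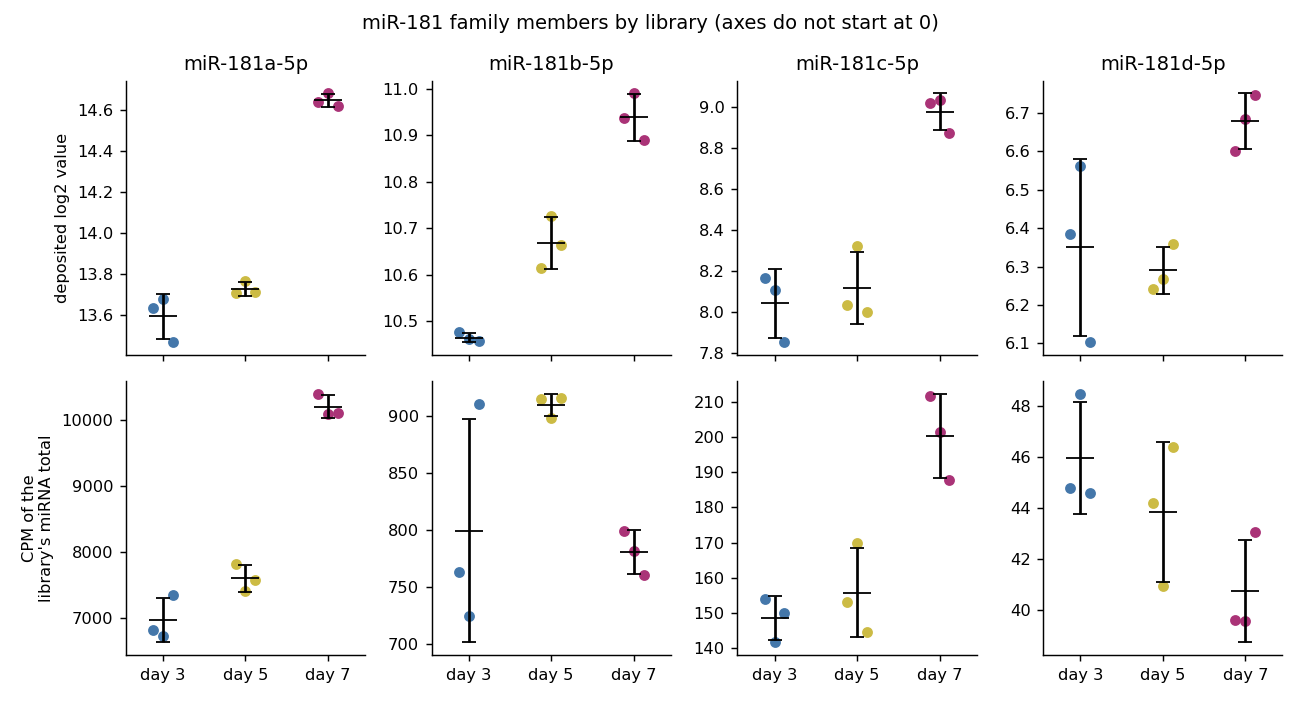
Values of the 4 miR-181 members in each small-RNA library by day, as deposited log2 values (upper row) and in CPM of the library's summed miRNA signal (lower row), with dots for libraries and black lines for the mean and SD of 3 libraries. All 4 members are highest on day 7 in the upper row; in the lower row miR-181a-5p and miR-181c-5p are highest on day 7 and miR-181b-5p and miR-181d-5p are not.

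Between day 7 and day 3, 3 of the 4 members rose on the deposited scale. In limma over 559 miRNAs with Benjamini-Hochberg adjustment, 300 miRNAs changed (53.7%), of which 253 were higher (45.3% of those tested), so a higher call was common. miR-181a-5p rose by 1.05 (SE 0.10, 95% interval 0.81 to 1.29, adjusted p = 0.000183), which is 2.07-fold and the 31st largest increase of the 559. miR-181c-5p rose by 0.93 (SE 0.12, adjusted p = 0.000505), the 55th largest. miR-181b-5p rose by 0.47 (SE 0.09, adjusted p = 0.00382), the 205th largest. For miR-181d-5p the difference was 0.33 (SE 0.13, 95% interval 0.02 to 0.64, adjusted p = 0.0691), which did not pass. It ranked 265th, where the median over all 559 miRNAs was 0.30. It passed in 1 fit over all 3 days (adjusted p = 0.035) and without the second day 3 library (adjusted p = 0.0279). In 55.8% of all miRNAs tested every day 7 library was above every day 3 library, as it was for all 4 members.

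Relative to the miRNA signal, the members parted. With library totals as the scale, 93 of the 559 miRNAs were higher on day 7 (16.6%), and miR-181a-5p, by 0.55 (SE 0.06, adjusted p = 0.00109), and miR-181c-5p, by 0.43 (SE 0.07, adjusted p = 0.00437), were among them. miR-181b-5p was then at -0.028 (SE 0.10, adjusted p = 0.813) and miR-181d-5p at -0.17 (SE 0.07, adjusted p = 0.0727), with the sign turned and neither past the threshold. The median over all 559 miRNAs was -0.20 on this scale.

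From day 3 to day 5 no member passed the test in limma. Over 539 miRNAs 80 changed (14.8%), 46 of them upward (8.53%). The median change was 0.07, or 0.06 with library totals. At an unadjusted p under 0.05, 0 members were called. The differences were 0.14 (95% interval -0.10 to 0.37) for miR-181a-5p, 0.20 (-0.02 to 0.42) for miR-181b-5p, 0.08 (-0.23 to 0.38) for miR-181c-5p and -0.06 (-0.36 to 0.25) for miR-181d-5p. In 22.6% of miRNAs every day 5 library was above every day 3 library, and this held for miR-181a-5p and miR-181b-5p. With library totals, 72 miRNAs were higher on day 5 (13.4%) and no member passed.

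From day 5 to day 7 all 4 members rose on the deposited scale, where 251 of 567 miRNAs changed (44.3%) and 223 were higher (39.3%). In limma the increases were 0.92 (SE 0.09, adjusted p = 0.000169) for miR-181a-5p, 0.86 (SE 0.12, adjusted p = 0.00079) for miR-181c-5p, 0.39 (SE 0.12, adjusted p = 0.0232) for miR-181d-5p and 0.27 (SE 0.08, adjusted p = 0.0184) for miR-181b-5p. In this order they ranked 20th, 35th, 202nd and 278th of the 567. The median change over the 567 was 0.26, or -0.24 with library totals. Every day 7 library was above every day 5 library for all 4 members, as for 53.3% of all miRNAs tested. With library totals 60 miRNAs were higher (10.6%), miR-181a-5p by 0.42 (adjusted p = 0.000838) and miR-181c-5p by 0.36 (adjusted p = 0.00593) among them. The other two members were then at -0.22 (miR-181b-5p, adjusted p = 0.053) and -0.11 (miR-181d-5p, adjusted p = 0.216). On the deposited scale, leaving out 1 library ended the calls of miR-181b-5p and miR-181d-5p in 4 of 6 cases each (adjusted p up to 0.0798 and 0.0766).

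**Figure D2:**
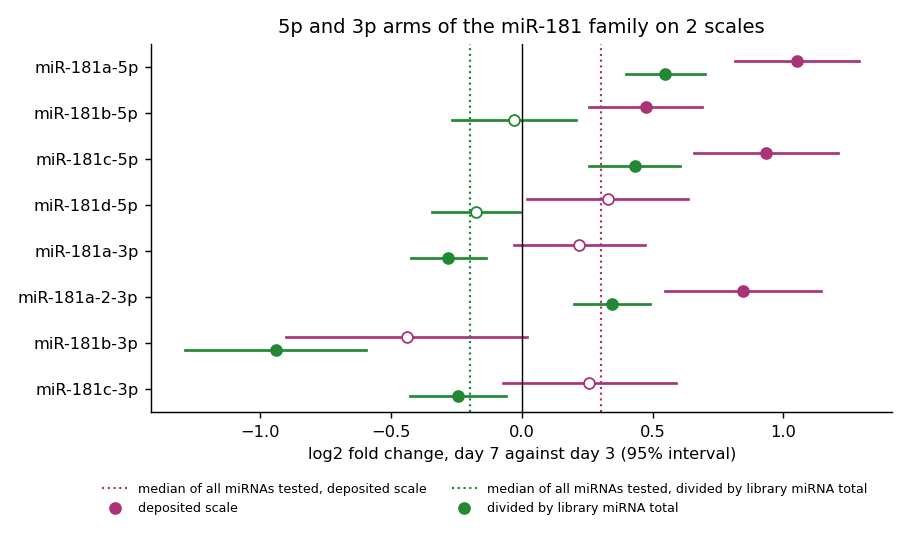
Log2 fold change of each miR-181 arm tested between day 7 and day 3, with 95% intervals from limma (3 libraries a day), on the deposited scale and after dividing by the library's summed miRNA signal; filled points passed adjusted p 0.05, and dotted lines mark the medians of all 559 miRNAs tested, 0.30 and -0.20. miR-181a-5p, miR-181c-5p and miR-181a-2-3p lie above 0 on both scales, while miR-181b-5p and miR-181d-5p do so on the deposited scale only.

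Summed over its 4 members the family took 0.796% ± 0.043 (SD, n = 3) of the miRNA signal on day 3, 0.871% ± 0.021 on day 5 and 1.12% ± 0.02 on day 7. Libraries of different days did not overlap, and the share was 0.778, 0.765 and 0.846% on day 3, 0.893, 0.852 and 0.869% on day 5, and 1.14, 1.11 and 1.11% on day 7. From day 3 to day 7 the share was 1.41-fold higher, and the summed level on the deposited scale 2.00-fold higher. In two-sided exact permutation tests each of these comparisons gave p = 0.1 (adjusted p = 0.1 over 6 comparisons), the smallest that 3 libraries against 3 can give.

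Within the family, miR-181a-5p made up 86.9 to 88.1% of the sum in the 6 libraries of day 3 and day 5, and 90.8 to 91.1% on day 7. miR-181b-5p went from 9.47 to 10.8% in those 6 libraries to 6.86 to 7.03% on day 7. miR-181d-5p was at 0.481 to 0.633% and then at 0.346 to 0.388%. miR-181c-5p stayed within 1.66 to 1.99% throughout.

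Where the values are plain log2, differences between 2 members in the same library do not depend on how libraries were scaled. They showed that members changed unequally. miR-181b-5p minus miR-181a-5p was -3.13 ± 0.11 on day 3, -3.06 ± 0.03 on day 5 and -3.71 ± 0.02 on day 7 (log2, SD, n = 3). miR-181d-5p minus miR-181a-5p went from -7.24 ± 0.12 and -7.44 ± 0.08 to -7.97 ± 0.08. For both pairs the day 7 libraries lay below all the others. Among all other miRNAs, however, 84.8% fell below miR-181a-5p in this way between day 3 and day 7, 86.9% between day 5 and day 7 and 30.3% between day 3 and day 5, so a relative loss against miR-181a-5p was common on day 7.

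miR-181c-5p differed less from miR-181a-5p in its change. Their difference was -5.55 ± 0.08, -5.61 ± 0.14 and -5.67 ± 0.07 on the 3 days, and the test over 3 days did not separate them (exact permutation over 1680 assignments of the 9 libraries, p = 0.407). The change from day 3 to day 7 was -0.12 (SE 0.06), with libraries of the 2 days that came close without overlapping. Against miR-181b-5p, miR-181c-5p gained 0.46 (SE 0.10) between day 3 and day 7. miR-181d-5p lost 0.61 (SE 0.12) against miR-181c-5p, its neighbour on chromosome 19. The same exact permutation test over 3 days gave p = 0.0143 for b minus a, 0.00714 for d minus a, 0.0107 for c minus b and 0.0143 for d minus c, each with adjusted p = 0.0214 over 6 differences. miR-181d-5p minus miR-181b-5p gave p = 0.161 (exact permutation, adjusted p = 0.193). This test over 3 days was added after the data were seen. In the planned tests per pair of days, 9 of 18 comparisons had no overlap, and these had exact permutation p = 0.1, the smallest possible (adjusted p = 0.2 over 18). For pairs without miR-181a-5p, the share over other miRNAs was not computed, so how common such differences are is not known.

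The 3p arms separate the hairpins. Of the 6 listed, miR-181b-2-3p and miR-181d-3p were under the filter in every comparison, with highest log2 values of 1.88 and 1.32. miR-181a-3p, from chromosome 1, had log2 values of 10.13, 10.20 and 9.93 on day 3, 10.01, 10.14 and 10.12 on day 5, and 10.32, 10.33 and 10.28 on day 7. Its day 7 libraries stood above the others by little, and the difference from day 3 was 0.22 (SE 0.11, limma adjusted p = 0.118). With library totals it fell by 0.28 (adjusted p = 0.00951).

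The 3p arms of MIR181B1 and MIR181C were low. miR-181b-3p had log2 values of 5.22, 5.52 and 4.69 on day 3, 4.48, 5.11 and 4.60 on day 5, and 4.82, 4.73 and 4.55 on day 7, with all days overlapping. Its difference of -0.44 from day 3 to day 7 (SE 0.20, limma adjusted p = 0.0946) passed with library totals, at -0.94 (adjusted p = 0.00306), with median centring, at -0.58 (adjusted p = 0.0162), and without the third day 3 library, at -0.67 (adjusted p = 0.00796). miR-181c-3p was at 4.40 ± 0.27, 4.37 ± 0.11 and 4.66 ± 0.03 (SD, n = 3), a difference of 0.26 from day 3 to day 7 (adjusted p = 0.16) that was -0.24 with library totals (adjusted p = 0.0357).

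miR-181a-2-3p, from chromosome 9, had log2 values of 8.45, 8.44 and 8.07 on day 3, 8.56, 8.81 and 8.72 on day 5, and 9.10, 9.23 and 9.17 on day 7. No 2 days overlapped. It rose by 0.85 (SE 0.13, limma adjusted p = 0.00103) from day 3 to day 7, and by 0.34 (adjusted p = 0.00464) with library totals. From day 5 to day 7 it rose by 0.47 (adjusted p = 0.0117), but was at -0.022 with library totals. From day 3 to day 5 the difference was 0.38 (SE 0.14, adjusted p = 0.111), which did not pass, whereas with library totals it was 0.37 (adjusted p = 0.011).

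Within a library, miR-181a-2-3p gained on miR-181a-3p on both days. The difference was -1.68, -1.76 and -1.86 on day 3, -1.45, -1.33 and -1.41 on day 5, and -1.22, -1.10 and -1.11 on day 7, with no overlap between days. Its mean moved by 0.37 (SE 0.06) to day 5 and by 0.63 (SE 0.07) to day 7 from day 3. The exact permutation test over the 3 days gave p = 0.00357, the smallest that 1680 assignments allow (adjusted p = 0.00595 over 5 differences between arms, all added after the data were seen). The ratio of the chromosome 9 arm to the chromosome 1 arm thus shifted, while whether their shared 5p product shifted in the same way between loci cannot be told apart from these tables. For pairs of 3p arms, the share over other miRNAs was not computed, so how common such a shift is remains unknown.

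By day 7 the 5p arms of miR-181a, miR-181b and miR-181c had gained on each of their tested 3p arms. miR-181a-5p minus miR-181a-3p was 3.51 ± 0.03 on day 3, 3.64 ± 0.06 on day 5 and 4.34 ± 0.01 on day 7 (SD, n = 3), with no overlap between days. Against miR-181a-2-3p, miR-181a-5p first lost 0.24 (SE 0.09) by day 5 and was 0.20 (SE 0.07) above its day 3 difference on day 7. miR-181c-5p minus miR-181c-3p went from 3.64 ± 0.12 and 3.75 ± 0.07 to 4.31 ± 0.11. miR-181b-5p minus miR-181b-3p was 5.32 ± 0.41, 5.94 ± 0.28 and 6.24 ± 0.11, and day 5 overlapped with both other days. miR-181b-5p comes from MIR181B1 and MIR181B2, whereas miR-181b-3p comes from MIR181B1 alone. For miR-181b a gain of the arm and a shift between loci therefore cannot be told apart. The same holds for miR-181a, where the 5p arm comes from MIR181A1 and MIR181A2 and each 3p arm from 1 of them. In the exact permutation test over 3 days miR-181a-5p against either 3p arm gave p = 0.00357 (adjusted p = 0.00595), miR-181c gave p = 0.0107 (adjusted p = 0.0134) and miR-181b gave p = 0.0429 (adjusted p = 0.0429). Outside the family, 136 hairpins had both arms tested between day 7 and day 3. In 55 of them (40.4%) the more abundant arm gained in every library and in 11 (8.09%) it lost, with a median change of 0.18 and quartiles of -0.08 and 0.44. Between day 5 and day 3 it gained in 17.8% of 129 such hairpins and lost in 16.3%. Between day 7 and day 5 it gained in 42.0% of 138 and lost in 10.9%. The changes of 0.83 for miR-181a-5p against the chromosome 1 arm, 0.67 for miR-181c and 0.91 for miR-181b were above the upper quartile, whereas that of 0.20 for miR-181a-5p against the chromosome 9 arm was between the median and the upper quartile.

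**Figure D3:**
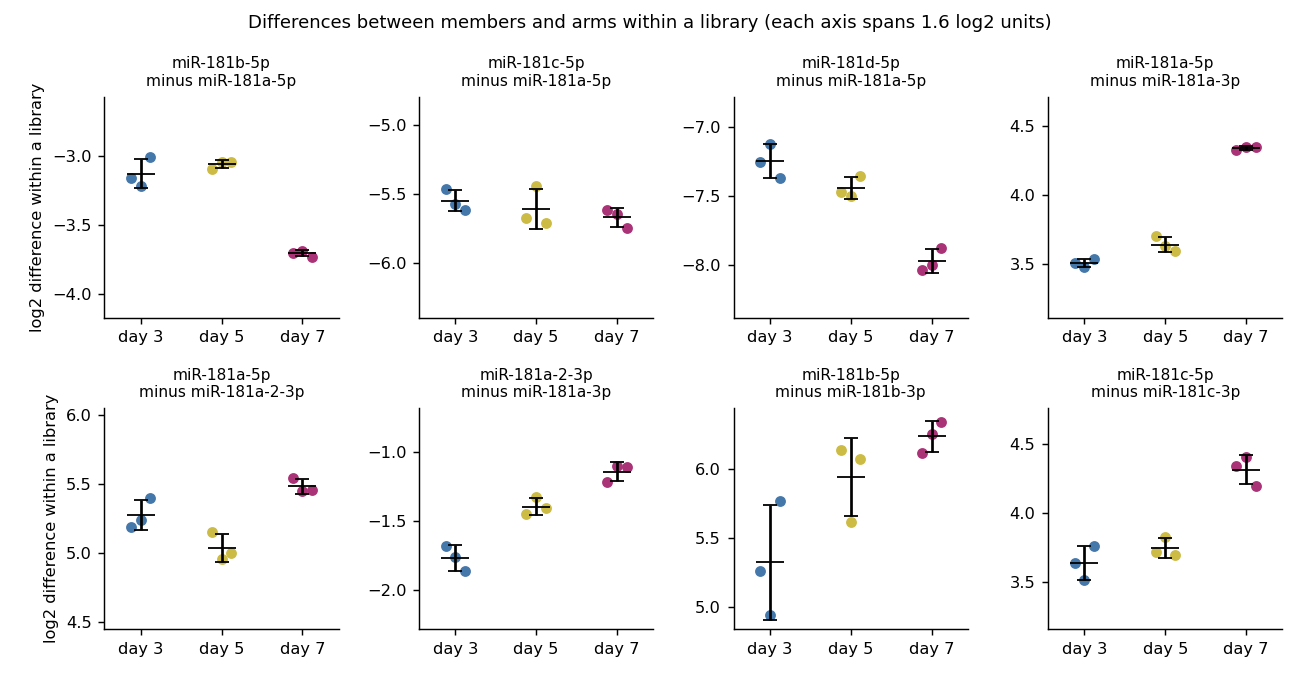
Log2 differences between pairs of miR-181 members or arms in the same small-RNA library, by day, with dots for libraries and black lines for the mean and SD of 3 libraries; each axis spans 1.6 log2 units. miR-181b-5p and miR-181d-5p drop against miR-181a-5p on day 7, miR-181c-5p moves by 0.12 from day 3, and miR-181a-2-3p climbs against miR-181a-3p on both days.

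The family sum was compared with 271 well-expressed miRNAs that are no member, over the 9 libraries. The 3 most alike were let-7c-5p (Pearson r = 0.996), miR-425-5p (r = 0.995) and miR-186-5p (r = 0.993). The sum mostly follows miR-181a-5p (r = 0.9999), and was less like miR-181c-5p (r = 0.980), miR-181b-5p (r = 0.940) and miR-181d-5p (r = 0.840). These values describe 9 points in 3 groups that share one normalization, and carry no test. From day 3 to day 7 let-7c-5p, miR-425-5p and miR-186-5p differed by 1.01, 1.22 and 0.64, and from day 3 to day 5 by 0.17, 0.13 and 0.04 (log2, deposited scale).

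The whole transcriptome libraries gave the transcripts around the hairpins and the genes the family could pair with, on day 3 and day 5 only. They held 27470978 to 56689369 recovered reads each, and values are reads scaled between libraries by the authors. In limma on log2(value + 1), 11450 of 20129 genes changed (56.9%), with 29.3% higher and 27.6% lower on day 5. The epithelial label was checked first: EPCAM, an epithelial adhesion protein, was at 7227 and 7236 and the keratin KRT8 at 19250 and 39070 on the 2 days, while VIL1, of the intestinal brush border, was near 3 and below the filter. All 5 epithelial markers tested were clearly present, 4 of them higher on day 5. Of the markers of other cells, PTPRC (leukocytes) was near 0, PECAM1 (endothelium) was not analysed here, VIM was at 330 and 312, and COL1A1, a fibroblast collagen, rose from 521 to 1129. The part of this in the results below was not tested. In RNA from whole cultures, fewer cells with a transcript and less of it per cell cannot be told apart.

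The host transcripts did not change detectably between day 3 and day 5. MIR181A1HG was at 326, 273 and 275 on day 3 and 241, 290 and 309 on day 5, overlapping, with a log2 difference of -0.06 (SE 0.13, limma adjusted p = 0.716). MIR181A2HG was at 17.4 ± 6.4 and 18.1 ± 2.5 (SD, n = 3), with a difference of 0.11 (SE 0.27, adjusted p = 0.748). NR6A1 was at 898 ± 37 and 868 ± 51 (adjusted p = 0.634). NANOS3 was below the filter, at 5.77 ± 2.50 and 7.08 ± 1.58.

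Of the 6 hairpin genes only MIR181B1 passed the filter, and it did so through day 3. Its values were 11.4, 10.5 and 12.8 on day 3, from 13, 17 and 9 reads, and 5.42, 4.29 and 6.21 on day 5, from 5, 4 and 6 reads. The days did not overlap, but a gene that passes the filter only through the day on which it is high had to differ, and the reads were few, so these values are a description with no test. The mature miR-181b-5p, which can also come from MIR181B2, was at 10.46 ± 0.01 and 10.67 ± 0.06 on these days in the small RNA (log2, SD, n = 3). The other 5 hairpin genes were under 2 on average on both days.

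Known targets of the family were described from a list set from general knowledge, with earlier results of these data known. It held 25 genes in 4 groups. Of these 23 were listed and 21 tested, and on day 5, when no family member had passed its test, 9 were higher, 1 was lower and 11 did not pass. The background was 29.3% higher and 27.6% lower. The median log2 change of the 21 was 0.31, and that of all genes tested 0.01. Over the 13094 tested genes with a 3′UTR, as these targets have, 37.7% were higher and 28.0% lower, with a median of 0.12. The seed pairs with the letters TGAATGT on the mRNA strand, and 16 of the 21 tested targets held them in the 3′UTR of the canonical transcript, 6 higher and 1 lower among them. Sites in 5 of those that changed are printed with the match in capitals, to show the bases next to it (GRCh38, transcript strand).
BCL2L11: atggaagtttgttgTGAATGTa
DUSP6: actattttggctatTGAATGTg
CDX2: gagcttctctgggcTGAATGTa
CARM1: gttcacctcacactTGAATGTa
RALA: atttatcatggtccTGAATGTa
These lie at chr2:111164425-111164446 (plus), chr12:89348056-89348077 (minus), chr13:27962400-27962421 (minus), chr19:10922361-10922382 (plus) and chr7:39706469-39706490 (plus), in the same order, and all but that of DUSP6 are followed by A, the base that Argonaute favours opposite miRNA base 1. The changed targets with a match that are not printed were DUSP5, with 1 match and 0 followed by A, and RASSF1, with 3 and 1. Of all tested genes with a 3′UTR, 2757 held a match and 889 held one followed by A. A match is a description of the letters and not evidence of binding.

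In the apoptosis and DNA damage group 3 of 6 rose, beside 37.7% of all tested genes with a 3′UTR. BCL2L11 encodes BIM, which triggers mitochondrial apoptosis. It was at 841, 860 and 808 on day 3 and 1337, 1215 and 1274 on day 5, with no overlap and a log2 difference of 0.61 (SE 0.08, limma adjusted p = 0.00114). MCL1, an anti-apoptotic relative of BCL2, rose by 0.57 (SE 0.09) and HSPA5, the chaperone of the endoplasmic reticulum, by 0.48 (SE 0.12). These last 2 had no match. BCL2 itself, with 1 match, was at 98.3 ± 23.2 and 92.0 ± 15.3 (SD, n = 3, adjusted p = 0.774), and ATM, the double-strand break kinase, with 2 matches, differed by -0.16 (adjusted p = 0.192). SIRT1, a deacetylase, differed by -0.07 (adjusted p = 0.538).

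Among phosphatases and MAPK genes 3 of 5 tested rose and 1 fell, beside 37.7% and 28.0% of all tested genes with a 3′UTR. The ERK phosphatase DUSP5 was at 1539, 1835 and 2593 on day 3 and 4531, 4998 and 5031 on day 5, a log2 difference of 1.32 (SE 0.20, limma adjusted p = 0.00207). Its day 3 libraries were spread, but none came near day 5. DUSP6, another ERK phosphatase, rose by 0.89 (SE 0.09, adjusted p = 0.000615), and RASSF1, a RAS-binding tumor suppressor with 3 matches, by 0.31 (SE 0.10, adjusted p = 0.0377). The RASSF1 call ended when any of 5 libraries was left out, with adjusted p up to 0.118. RALA, a RAS-like GTPase, fell, from 2088, 2325 and 2173 to 1381, 1304 and 1523, by 0.65 on the log2 scale (SE 0.09, adjusted p = 0.0018). It was the only listed target lower on day 5. PTPN11, which encodes the phosphatase SHP2, differed by -0.06 (adjusted p = 0.578), and PTPN22 was below the filter.

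Of 6 differentiation factors tested 3 rose, beside 37.7% of all tested genes with a 3′UTR. CARM1, an arginine methyltransferase, was at 1745, 2212 and 2632 on day 3 and 4616, 4254 and 4604 on day 5, a log2 difference of 1.05 (SE 0.16, limma adjusted p = 0.00218). EGR1, an immediate early factor with no match, rose by 0.95 (SE 0.23, adjusted p = 0.0136) and CDX2, the intestinal homeobox factor, by 0.44 (SE 0.10, adjusted p = 0.00889). GATA6, an endodermal factor, differed by 0.52 (SE 0.19, adjusted p = 0.0632), and edgeR and DESeq2 on recovered reads called it higher (adjusted p = 0.0142 and 0.0186). HOXA11 and PLAG1 overlapped between days, at -0.17 and 0.17. PROX1 was below the filter and TCL1A was not analysed here.

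None of 4 tested genes of the Wnt, NF-kappaB and matrix group passed in limma, where 1 had an unadjusted p under 0.05. In edgeR and DESeq2 0 were called. Of all tested genes with a 3′UTR, 37.7% were higher and 28.0% lower in limma. TIMP3, a metalloproteinase inhibitor, differed by 0.48 (SE 0.19, adjusted p = 0.0793). NLK, CYLD and KPNA4 lay between -0.09 and -0.06. WIF1 was not analysed here.

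IGF1R, the insulin-like growth factor receptor that the study followed as a candidate target, rose more than any known target tested. It was at 509, 529 and 527 on day 3 and 1760, 1902 and 1836 on day 5, a log2 difference of 1.81 (SE 0.07, limma adjusted p = 0.000117). Its canonical 3′UTR of 7088 bases held no TGAATGT, nor GAATGTA, the form that leaves out base 8 and ends in A, which 9.88% of the tested 3′UTRs held. This says only that these letters are not in this window.

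**Figure D4:**
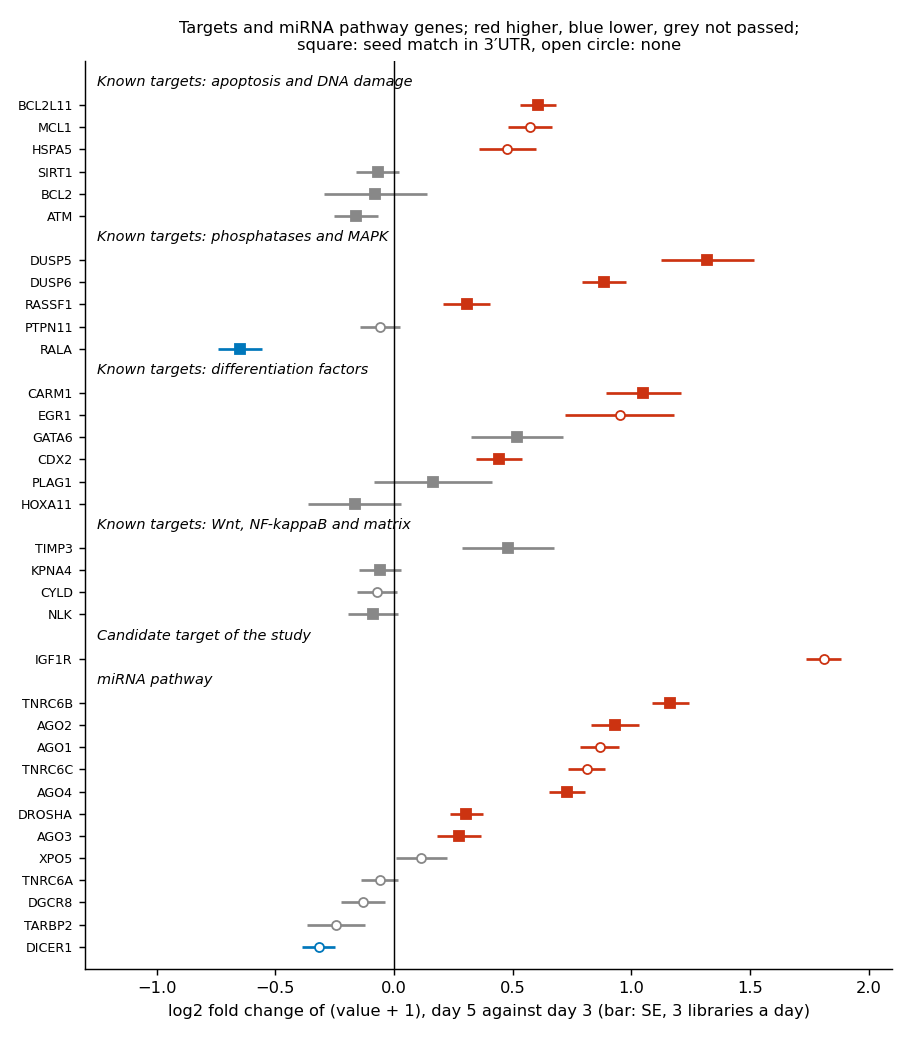
Log2 fold change between day 5 and day 3 of known miR-181 targets, IGF1R and miRNA pathway genes in the whole transcriptome, with SE bars from limma (3 libraries a day); red is higher, blue lower and grey not past adjusted p 0.05, and filled squares have a seed match in the 3′UTR. Of the known targets 9 are red and RALA alone is blue; of the pathway genes 7 are red and DICER1 is blue.

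Genes of the miRNA pathway were set beside the family as the machinery that makes and uses it. All 12 were tested, and 7 were higher, 1 lower and 4 did not pass, against 29.3% higher and 27.6% lower of all genes tested. Their median log2 change was 0.29, and that of all genes 0.01. Over the tested genes with a 3′UTR, as all of these have, 37.7% were higher and 28.0% lower, with a median of 0.12. The Argonaute genes rose, AGO2 from 2764, 2964 and 3425 to 5754, 5738 and 5906 (log2 difference 0.93, SE 0.10, limma adjusted p = 0.000655). AGO1 rose by 0.87 (SE 0.08), AGO4 by 0.73 (SE 0.08) and AGO3 by 0.27 (SE 0.09, adjusted p = 0.0464), the last of which did not pass with library totals (adjusted p = 0.0682) or without any of 5 libraries (adjusted p up to 0.124). Of the Argonaute partners TNRC6B rose by 1.16 (SE 0.08, adjusted p = 0.000221) and TNRC6C by 0.81 (SE 0.08), whereas TNRC6A was at -0.06 (adjusted p = 0.525). Of the enzymes, DROSHA rose by 0.30 (SE 0.07, adjusted p = 0.0117) and DICER1 fell by 0.32 (SE 0.07, adjusted p = 0.00928). DICER1 did not pass with library totals (adjusted p = 0.0528). DGCR8 and XPO5 did not pass, and TARBP2, at -0.24 (adjusted p = 0.135), was called lower by edgeR and DESeq2 (adjusted p = 0.0255 and 0.0458). With no filter on low values DROSHA, DICER1, AGO3, CDX2, HSPA5 and RASSF1 did not pass (adjusted p of 0.0525 to 0.177).

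Genes with a seed match were then described over the whole table, with no test. TGAATGT was searched on the transcript strand of the canonical 3′UTR of 13094 tested genes, and 2757 (21.1%) held at least 1. Of these 35.9% were higher and 30.1% lower on day 5, against 38.2% and 27.5% of the 10337 genes with none, and 37.7% and 28.0% of all. The median log2 change was 0.06 with a match and 0.14 without. For the 889 genes (6.79%) with a match followed by A, 33.2% were higher and 32.5% lower, with a median of 0.02. The median with a match minus that without was -0.08, and it was -0.11, -0.09 and -0.05 when each day 5 library was set against the mean of day 3.

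Genes with a match had longer and less GC-rich 3′UTRs, with a median length of 3036 bases and GC content of 38.4%, compared with 973 bases and 44.6% without a match. Within each of 5 bins of 3′UTR length the median was lower with a match. It was -0.28 against 0.03 under 500 bases (90 genes with a match), -0.11 against 0.19 from 500 to under 1000, 0.00 against 0.19 from 1000 to under 2000, 0.08 against 0.14 from 2000 to under 4000, and 0.13 against 0.18 from 4000 bases. The part of base composition in this was not tested.

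**Figure D5:**
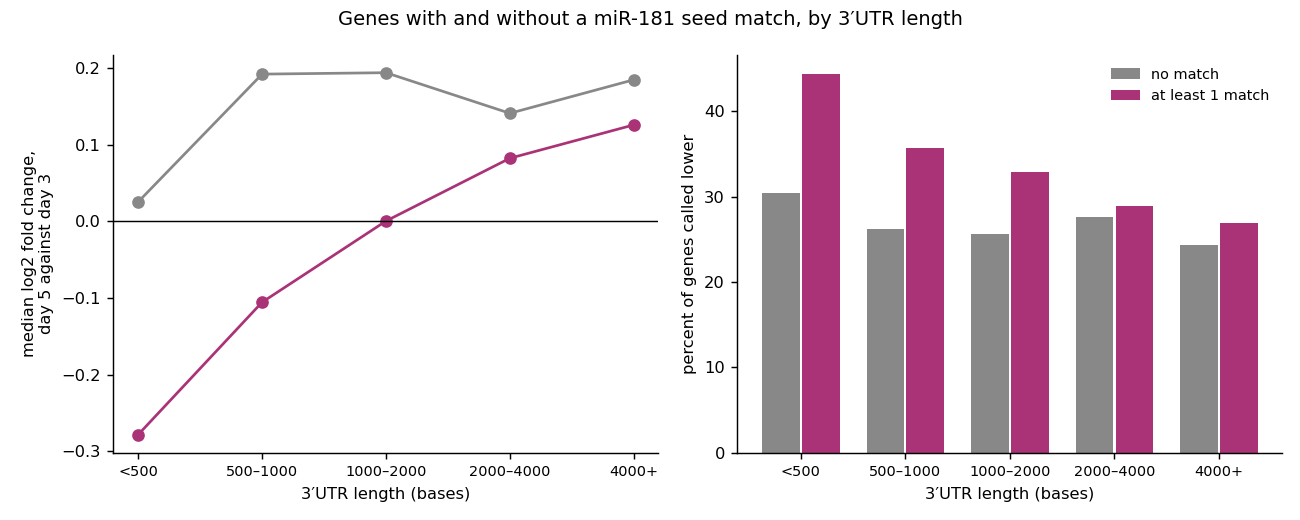
Median log2 fold change between day 5 and day 3 (left) and the percent of genes called lower in limma (right) for genes with and without TGAATGT in the canonical 3′UTR, in 5 bins of 3′UTR length in bases. The median with a match is below that without in all 5 bins, by most under 500 bases, where 90 genes had a match.

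The tested genes with the most matches were ZNF487, with 11, then ENSG00000269693 and ZNF594 with 8 each, and NCKAP1, TMEM106B and ZNF780B with 7 each. Of the 205 genes with at least 3 matches, 32.2% were higher and 27.8% lower on day 5. ZNF594, a zinc finger gene, fell by 0.38 on the log2 scale (SE 0.11, limma adjusted p = 0.0254), and TMEM106B, a lysosomal membrane protein gene, fell by 0.37 (SE 0.09, adjusted p = 0.0138). ZNF780B, a zinc finger gene tied at the fifth place, fell by 0.31 (SE 0.11, adjusted p = 0.049). NCKAP1, of the actin-regulating WAVE complex, was at -0.02 (adjusted p = 0.842), ZNF487 at 0.08 (adjusted p = 0.577) and ENSG00000269693 at 0.97 (SE 0.36, adjusted p = 0.0628).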

How the data were processed

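Small RNA was extracted with Trizol, prepared with TruSeq kits, trimmed with Cutadapt and mapped to mature and hairpin sequences from GRCh37, and the authors normalized counts by TMM in edgeR. The deposited log2 values are on a transformed scale the sources do not name; the read lengths stated after trimming begin above the length of these mature miRNAs, and how this bears on the values was not tested. For the whole transcriptome, ribosomal RNA-depleted and strand-specific, the authors mapped reads to ENSEMBL hg38 genes; the deposited values are a normalized signal, whole multiples of 1 read for 100% of values (tolerance 0.02 reads), from which reads were recovered. Intervals cover the spread between replicates. The authors' columns of fold changes and p-values were not used.

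limma 3.58.1 (R 4.3.3) was fitted across all features that reached 10 in 3 or more of the libraries compared, on log2 values as deposited or on log2(value + 1), with Benjamini-Hochberg adjustment and a threshold of 0.05. Only the 2 days compared entered a fit, other than for day 7 against day 5, taken from 1 fit over 9 libraries. edgeR 4.0.16 and DESeq2 1.42.0 were run on recovered reads. Exact permutation tests were two-sided. 3′UTRs were those of Ensembl canonical transcripts (GENCODE, GRCh38), and 10653 of 13081 genes without a symbol were named by Ensembl ID. Scripts were tested on simulated data. Named genes were all members, 3p arms, host, target and pathway genes listed, the 3 miRNAs most correlated with the family sum and the 5 genes with most matches, with 1 tied at the last place. Of the target genes first listed, 2 are not reported here, for a reason unrelated to their values, and stand in no list count. Members and lists were chosen with earlier results of these data known.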

Additional observations from a re-analysis of the deposited data

How the results depend on the processing

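Library totals in place of the deposited scale turned the sign of several arms. Between day 7 and day 3 miR-181b-5p was then at -0.028, miR-181d-5p at -0.17, miR-181a-3p at -0.28 and miR-181c-3p at -0.24, and between day 7 and day 5 miR-181a-2-3p was at -0.022, miR-181a-3p at -0.27, miR-181b-5p at -0.22, miR-181c-3p at -0.20 and miR-181d-5p at -0.11. The other alternatives reversed no arm or listed gene that passed a test. The count of miRNAs called between day 5 and day 3 was 80, and it was 135 with library totals, 124 with median centring, 50 with no filter on low values and 37 to 122 when 1 library was left out. Between day 7 and day 5 it was 251, and 164 with no filter. Median centring ended the day 7 against day 5 calls of miR-181b-5p (0.08, adjusted p = 0.528) and miR-181d-5p (0.20, adjusted p = 0.123), and no filter those of miR-181d-5p (adjusted p = 0.0961) and miR-181a-2-3p (adjusted p = 0.0609). The causes were not tested. The difference in medians for seed matches was -0.08, and -0.12 for a match followed by A. Of the 18 differences between members within a library, 9 did not overlap, and 9 to 14 when 1 library was left out, the 14 without the third day 3 library. The rises of miR-181a-5p and miR-181c-5p from day 3 to day 7 and from day 5 to day 7 passed under all alternatives run.

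Replicate numbers did not pair the samples: correlations of deviations between same-numbered libraries ran from -0.08 to 0.12 in the small RNA and from -0.01 to 0.03 in the whole transcriptome. With the number as a block, 302, 71, 254 and 10533 features were called (day 7 against 3, day 5 against 3, day 7 against 5, whole transcriptome), and every member call stayed on the same side of the threshold. Among arms and listed genes miR-181b-3p then passed from day 3 to day 7 (-0.44, adjusted p = 0.0259), and RASSF1 (adjusted p = 0.0816) and AGO3 (adjusted p = 0.093) did not. The permutation within pairs cannot give p under 0.25. Small RNA depth is unknown, so the counting error of miR-181d-5p and the 3p arms is unknown.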
